A study of Mus musculus with 2 samples.

Results

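Acod1, Hcar2, Upp1 and Gadd45b are 4 of the 2000 genes measured in single cells of mouse pancreatic tumors, and their values were followed over every cell cluster and both libraries of the study. They were picked by name, after an earlier look at the same data had placed Acod1, Hcar2 and Gadd45b among the genes with the lowest values in Ahr cKO relative to Ahr fl/fl neutrophils. That difference is therefore a description here and supports nothing. Acod1 makes itaconate, a metabolite of activated myeloid cells that dampens inflammation. Hcar2 is a G protein-coupled receptor for niacin and beta-hydroxybutyrate, and in mice it is found on neutrophils, macrophages and fat cells. Upp1 splits uridine into uracil and ribose-1-phosphate, and Gadd45b is a stress-induced protein that acts on p38 and JNK signalling. Neutrophils mature in the bone marrow from progenitors that fill primary and then secondary granules, and the RNA of mature cells changes again in tissue.

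One library came from Ahr cKO mice (genotype label C57/BL6 Ahr fl/fl Lys M, described as LysM-CRE cKO) and one from Ahr fl/fl mice (C57/BL6 Ahr fl/fl). Both carry the floxed Ahr gene, which encodes a transcription factor activated by aromatic ligands, and both carried pancreatic tumors grown for 14 days from the KPC organoid line MT4. LysM-Cre acts in macrophages and neutrophils and deletes in a varying share of them. Each library pooled the tumors of 3 mice, so there is 1 library a genotype, no replicate and no test. An SD below is over cells, and 95% intervals of shares are exact Clopper-Pearson intervals that cover counting error only.

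The files hold 4577 cKO and 5196 fl/fl cells with scaled scores, not counts, so total counts per cell are unknown. A median of 108 of the 2000 genes lay above zero in an fl/fl cell, where a gene's lowest value, shared by most fl/fl cells, was taken as zero. In the cKO library 12.5% of cells lay below that level for Acod1, 19.9% for Hcar2, 19.3% for Upp1 and 36.3% for Gadd45b. No zero level was therefore read in cKO cells, and a cKO minus fl/fl difference is a difference of scaled scores, not of expression. Across the libraries 656 cell barcodes were shared, which is 14.3% of cKO and 12.6% of fl/fl cells, and 618 of the 656 pairs (94.2%) fell in the same of 24 clusters. The same cells may therefore stand in both libraries, which was not tested, and values of clusters rich in shared barcodes are given with that limit. An unnamed cluster led by Vim, Atf3 and Ccl2 was nearly all shared, with 334 of 336 cKO and 331 of 351 fl/fl cells. The Neutrophil-like cluster held 9 of each among 225 cKO and 272 fl/fl cells. Ahr itself was above zero in 2 of 272 fl/fl Neutrophil-like cells (0.735%, 0.0892 to 2.63), so its deletion could not be checked in these cells.

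The genes lie on 4 chromosomes in GRCm38.p6, Acod1 at chr14:103047012-103056573, Hcar2 at chr5:123863570-123865516, Upp1 at chr11:9118008-9136170 and Gadd45b at chr10:80930091-80932204. RefSeq promoter sequence was held for 3 of them. The 250 bases upstream of the start (of the farthest upstream of 3 starts for Upp1) are shown because the genes share a cluster of highest level, and capitals mark matches to any of 8 motifs.
Acod1, chr14:103046762-103047011, plus strand: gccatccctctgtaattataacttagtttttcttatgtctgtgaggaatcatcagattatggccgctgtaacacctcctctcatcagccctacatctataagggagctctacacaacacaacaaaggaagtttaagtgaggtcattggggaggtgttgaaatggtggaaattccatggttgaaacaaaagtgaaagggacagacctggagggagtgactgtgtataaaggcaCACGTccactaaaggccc
Upp1, chr11:9117758-9118007, plus strand: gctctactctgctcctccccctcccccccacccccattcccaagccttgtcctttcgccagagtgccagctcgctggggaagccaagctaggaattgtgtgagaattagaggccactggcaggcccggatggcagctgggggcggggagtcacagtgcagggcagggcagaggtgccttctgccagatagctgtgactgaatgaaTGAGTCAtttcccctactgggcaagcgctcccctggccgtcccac
Gadd45b, chr10:80929841-80930090, plus strand: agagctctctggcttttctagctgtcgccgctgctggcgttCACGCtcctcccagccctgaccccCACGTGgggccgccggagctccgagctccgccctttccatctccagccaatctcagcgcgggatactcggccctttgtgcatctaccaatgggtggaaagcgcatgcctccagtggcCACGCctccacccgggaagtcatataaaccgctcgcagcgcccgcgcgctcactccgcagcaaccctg
The motifs, searched on both strands, were kB (GGGRNNYYCC), AP-1 (TGANTCA), CRE (TGACGTCA), C/EBP (TTGCNNAA), hypoxia (ACGTG), Ahr (GCGTG), antioxidant (TGACNNNGC) and STAT (TTCNNNGAA). The hypoxia letters were in the Acod1 and Gadd45b windows, where both strands of 1 palindrome match in Gadd45b, and in 16.6% of all 32851 promoters. Upp1 had the AP-1 letters 45 to 39 bases before its start, a motif in 6.75% of promoters. The Ahr letters occurred at 2 places in Gadd45b and in 28.2% of promoters. The kB, CRE, C/EBP, antioxidant and STAT motifs were in none of the 3 windows, and in 7.25%, 1.55%, 9.56%, 10.2% and 7.02% of promoters. For kB this holds for the spelling used only, since 1 of 2 other spellings tried matched Acod1. No motif of the 8 was in all 3 windows.

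All 4 genes had their highest fl/fl mean in the Neutrophil-like cluster, led by Csf3r, Hdc and Il1b. Acod1 averaged 1.79 ± 3.13 there (SD over 272 fl/fl cells) and was above zero in 109 cells (40.1%, 95% interval 34.2 to 46.2). Hcar2 averaged 1.58 ± 3.01 and was above zero in 98 cells (36.0%, 30.3 to 42.0). Upp1 averaged 1.67 ± 3.02 and was above zero in 109 cells (40.1%, 34.2 to 46.2), and Gadd45b averaged 1.41 ± 2.87 with 112 cells (41.2%, 35.3 to 47.3). The 4 shares overlap in their intervals. The label came from neutrophil markers, so their presence here follows from the naming. In cells with at least 1 of the 4 genes a median of 8 of 16 measured neutrophil markers was above zero. Cells with none had a median of 8.5. In an unnamed cluster led by Ifitm6, Ltf and S100a8 the medians were 13 in cells with a member and 8 in cells without. The immature cluster led by Camp had 8 and 4.

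**Figure D1:**
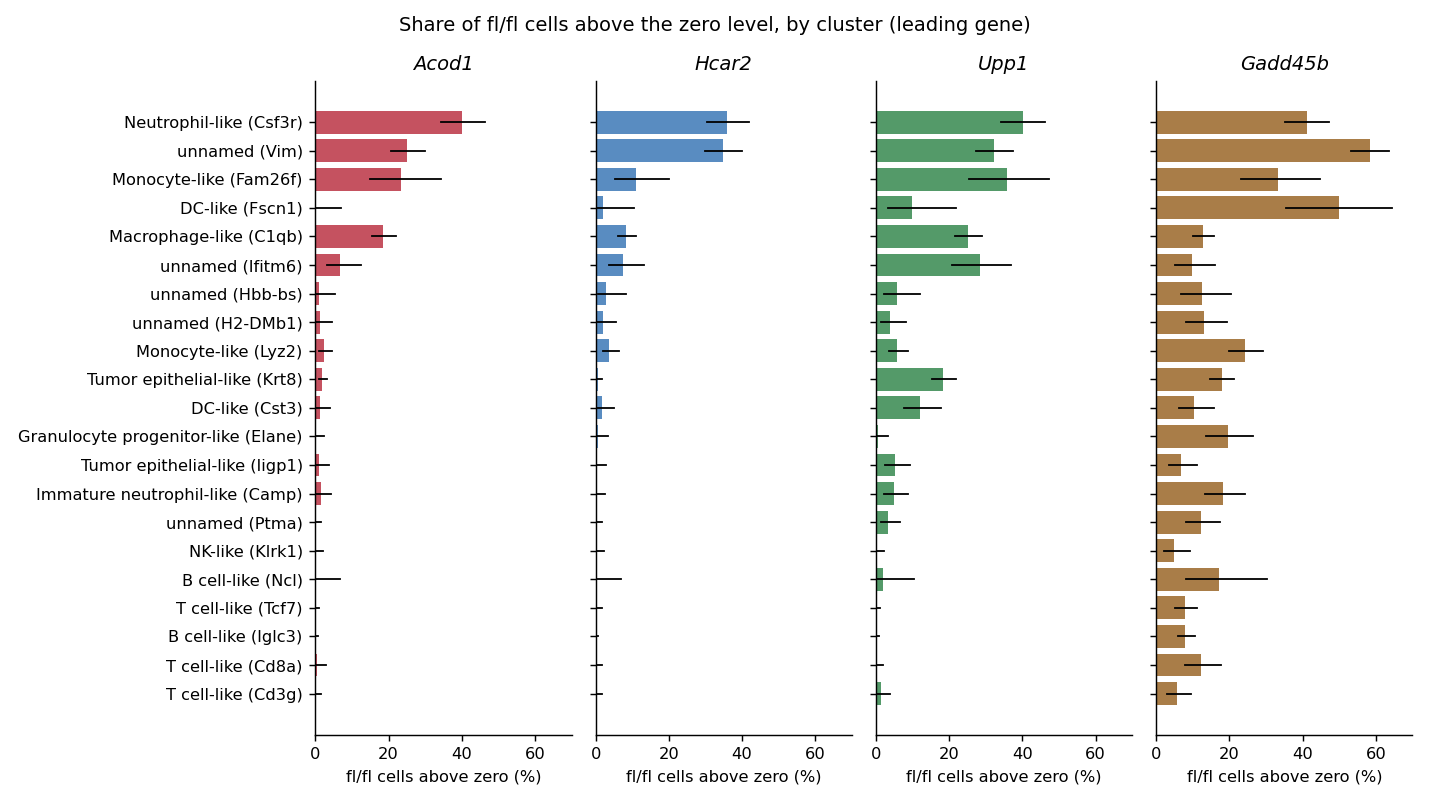
Share of fl/fl cells above the zero level (x axis, percent) for each gene in the 21 clusters with at least 50 fl/fl cells (y axis, class and leading gene). Bars are shares and lines are 95% Clopper-Pearson intervals. Acod1 and Hcar2 are near 0 in lymphoid clusters, while Gadd45b is above zero in every cluster shown.

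Outside neutrophils the 4 genes went separate ways. The unnamed Vim, Atf3 and Ccl2 cluster was next in mean for Acod1 (0.250 ± 1.10) and Hcar2 (0.334 ± 1.01), with 25.1% and 34.8% of its 351 fl/fl cells above zero. Gadd45b was above zero in 58.4% of this cluster (53.1 to 63.6), with a mean of 0.666 ± 1.47. Many of those values were low, with a median of 0.782 for Gadd45b values above zero, against 2.66 in Neutrophil-like cells. At least 1 above zero, Gadd45b was in 31.1% of this cluster (26.2 to 36.2) and 35.7% of Neutrophil-like cells (30 to 41.7), and Hcar2 in 17.7% (13.8 to 22.1) and 33.5% (27.9 to 39.4). A median of 154 genes lay above zero in its fl/fl cells, against 72 in Neutrophil-like cells, so shares of the clusters stand at unlike depths. Nearly all cells of this cluster had shared barcodes, and without them 2 cKO and 20 fl/fl cells remained.

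Upp1 was second in a small Monocyte-like cluster led by Fam26f, Cxcl10 and Isg15, genes of the interferon response, with a mean of 0.716 ± 1.77 and 29 of 81 fl/fl cells above zero (35.8%). Shared barcodes made up 40 of its 61 cKO and 37 of its 81 fl/fl cells. The Macrophage-like cluster, led by the complement genes C1qb, C1qa and C1qc, had Upp1 above zero in 25.1% and Acod1 in 18.6% of 549 fl/fl cells. Hcar2 was above zero in 8.38% of these cells, and Gadd45b in 12.8%. Upp1 also reached 18.4% of the 564 fl/fl cells of the Tumor epithelial-like cluster led by Krt8, where Acod1 was at 1.77% and Hcar2 at 0.709%.

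Gadd45b stood apart in a DC-like cluster and in lymphoid cells. In the DC-like cluster led by Fscn1, Cacnb3 and Ccr7 it was above zero in 25 of 50 fl/fl cells (50%, 35.5 to 64.5) with a mean of 0.773 ± 1.49, the second highest of the 21 clusters. Acod1 was above zero in 0 of those cells, which with so few cells allows a share of up to 7.11%. In the other DC-like cluster, led by Cst3, Plet1 and H2-Ab1, Gadd45b was in 10.3% of 175 fl/fl cells and Upp1 in 12%. Among T, B and NK-like clusters of at least 50 fl/fl cells, Gadd45b lay between 4.76% and 17.3% of cells, while Acod1 and Hcar2 were at most 0.510% and 0.292%. Upp1 was between 0% and 1.92% in the same clusters. Those near-zero shares give the level of stray signal in cells that lack Acod1 and Hcar2, at a median of 71 to 135 genes above zero per cell.

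Along the granulocyte clusters of the fl/fl library the genes differed in where they appeared. Acod1 was above zero in 0 of 164 progenitor-like cells (led by Elane), which allows up to 2.22%, in 1.45% of 207 immature cells (led by Camp), in 6.72% of 134 cells of an unnamed cluster led by Ifitm6, Ltf and S100a8, and in 40.1% of Neutrophil-like cells. Hcar2 followed with 0.610%, 0.483%, 7.46% and 36.0%. Upp1 was already at 28.4% (20.9 to 36.8) in the Ifitm6 cluster, after 0.610% and 4.83%. Gadd45b had 19.5% and 18.4% in the first 2 clusters, 9.70% (5.27 to 16.0) in the Ifitm6 cluster and 41.2% in Neutrophil-like cells. Low values made up much of this, since at least 1 above zero Upp1 was in 9.70% (5.27 to 16.0) and Gadd45b in 0.746% of the Ifitm6 cluster, and Gadd45b in 9.15% of the progenitor-like and 4.35% of the immature cluster. Median genes above zero were 94, 93, 101 and 72 in these 4 clusters. Within them cells with a member were deeper, with medians of 235, 340, 157.5 and 74 other genes above zero, against 85, 83.5, 67 and 58 in cells with none. These clusters are not a measured time course.

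**Figure D2:**
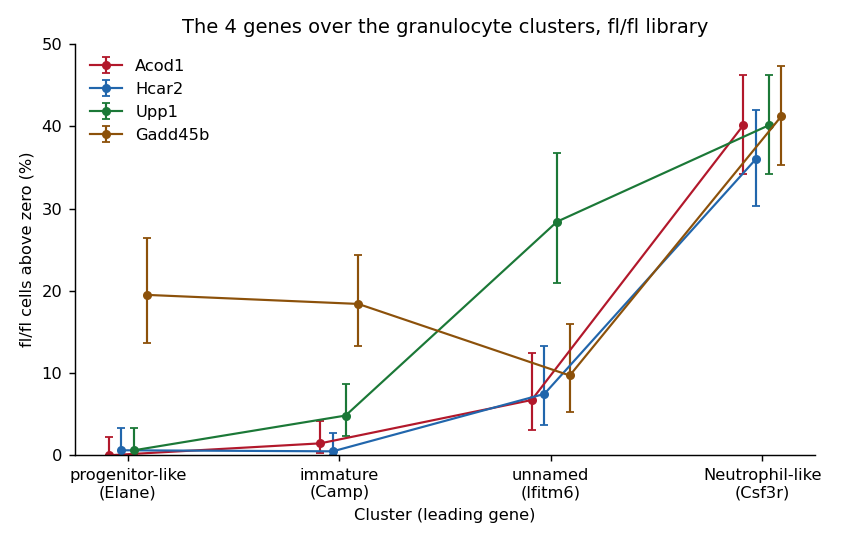
Share of fl/fl cells above zero (y axis, percent) in 4 granulocyte clusters (x axis, with leading gene), 1 line a gene, with 95% Clopper-Pearson intervals. Acod1 and Hcar2 stay below 8% until the Neutrophil-like cluster, Upp1 is at 28.4% in the Ifitm6 cluster, and Gadd45b is at 19.5% in the progenitor-like cluster.

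Across the 24 clusters, the 5 genes most like each member were taken by Pearson correlation of fl/fl mean scaled values, a description over clusters of 1 library whose cells differ in depth. Acod1 was most like Hcar2 (r = 0.987), Il1b (0.979), Ier3, Csf3r and Cxcl3. Hcar2 was most like Cxcl3 (0.988), Acod1, Ier3, Csf1 and Il1b. Upp1 was most like Oasl2 (0.972), an interferon-induced gene, then Acod1, Tnfaip2, Il1b and Ccrl2. Gadd45b had weaker partners, led by Cd274 (0.901), the PD-L1 gene, then Dusp1, Il1rn, Slc7a11 and Il1b. Much of this rests on 1 cluster, since the Acod1 and Hcar2 value was 0.843 over the 23 clusters without Neutrophil-like cells.

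Within Neutrophil-like cells the 4 genes did not mark 1 set of cells. In the fl/fl library 54 of 272 cells had none of them above zero, 83 had 1, 80 had 2, 35 had 3 and 20 had all 4 (7.35%, 4.55 to 11.1). The most frequent single patterns were Acod1 alone in 26 cells and Upp1 alone in 24. Cells with more members were deeper, with a median of 58 other genes above zero in cells with none and 98.5 in cells with all 4. They are therefore named here by symbol and not as a cell state.

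Over all fl/fl Neutrophil-like cells Hcar2 and Gadd45b had the highest ratio of cells with both to the product of their shares. Among the 98 fl/fl cells with Hcar2, 59.2% had Gadd45b (48.8 to 69.0), against 31.0% of the 174 cells without Hcar2 (24.3 to 38.5). That is 58 cells with both, 1.44 times the product of the shares, and the ratio was 1.69, 1.30 and 1.27 in the lowest, middle and highest tertile of cells by genes above zero. The order of pairs changed with depth, since Hcar2 with Upp1 was also at 1.30 in the middle tertile, and in the highest Acod1 with Gadd45b stood at 1.40 (74.4% of cells with Acod1, 34% without). In the lowest tertile Acod1 with Gadd45b ran the other way, at 0.623 (22.6% of cells with Acod1, 43.3% without). There Acod1 with Hcar2 was at 0.758, Upp1 with Gadd45b at 0.552, Hcar2 with Upp1 at 0.978 and Acod1 with Upp1 at 1.57. Over all cells, in the other 5 pairs the ratio lay between 1.07 (Acod1 with Hcar2) and 1.27 (Hcar2 with Upp1). Spearman rho over the 272 cells was 0.359 for Hcar2 with Gadd45b and between 0.0109 and 0.176 for the other pairs. Acod1 and Hcar2, almost alike across clusters, had a rho of 0.0600 across these cells. All 4 were found most often in the deepest tertile. Upp1 had a rho of 0.320 to the number of other genes above zero and shares of 16.5%, 42.9% and 61.1% from the lowest to the highest tertile. Acod1 was at 34.1%, 38.5% and 47.8%, Hcar2 at 34.1%, 29.7% and 44.4%, and Gadd45b at 36.3%, 34.1% and 53.3%, with a rho between 0.00337 and 0.0585.

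**Figure D3:**
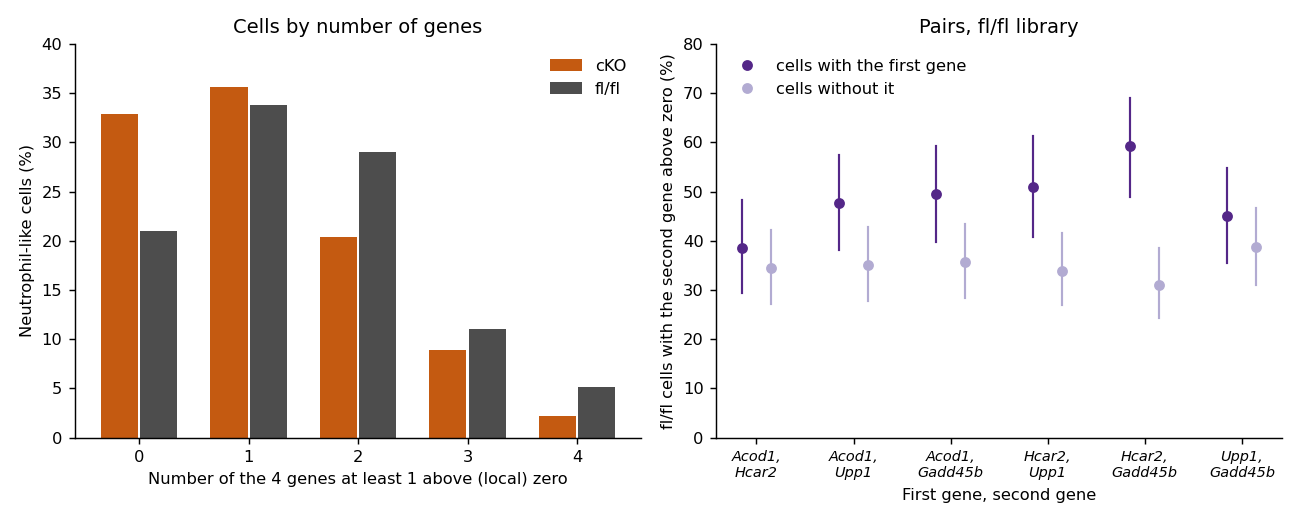
Left, share of Neutrophil-like cells (y axis, percent) by how many of the 4 genes lay at least 1 above the local zero (cKO, orange) or zero (fl/fl, grey). Right, share of fl/fl Neutrophil-like cells with the second gene above zero (y axis, percent) in cells with the first gene and without it, with 95% intervals, where the gap is widest for Hcar2 with Gadd45b.

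The genes most like each member over fl/fl Neutrophil-like cells overlapped for Hcar2 and Gadd45b. Acod1 went with Tnfaip2 (rho 0.295), Marcksl1, the interferon-induced GTPase genes Gbp2 and Gbp5, and Cd14. Hcar2 went with the chemokine genes Ccl4 (0.430) and Ccl3, with Hilpda and Ero1l, which rise in low oxygen, and with the ferritin gene Fth1. Gadd45b was led by the glycolysis gene Pgam1 (0.427), then Ero1l, Hilpda, Fth1 and Hcar2, and Ccl4 (0.326) and Ccl3 (0.285) were among its next partners. Upp1 was led by Tes (0.334), Cd274, Pgam1, Egln3 and Gbp5. These partners were picked as the highest fl/fl values. Many had a lower rho in the 225 cKO cells, read above an estimated local zero described with the processing. There Hcar2 was at 0.013 with Ccl3 and 0.148 with Hilpda, and Gadd45b at 0.00797 with Ccl4. Acod1 was at 0.0569 with Tnfaip2 and Upp1 at 0.0638 with Tes. Nearer their fl/fl values were Acod1 with Gbp2 (0.267) and Cd14 (0.263) and Upp1 with Gbp5 (0.247). Of 13 genes on a list of tumor neutrophil genes, 9 had a rho of at least 0.2 with Hcar2 in fl/fl cells, 5 each with Upp1 and Gadd45b, and 0 with Acod1. Of 20 NF-kappaB and TLR targets, 7 reached 0.2 with Acod1, 5 each with Hcar2 and Gadd45b, and 4 with Upp1. Over all 312 other genes above zero in at least 5% of these cells, the counts were 26 for Hcar2, 35 for Upp1, 21 for Gadd45b and 13 for Acod1. No gene among 18 mature neutrophil and granule genes reached 0.2 with any of the 4 in fl/fl cells, but some ran inversely. Hcar2 had a rho of -0.329 with Mmp9 and -0.22 with Cxcr2. Gadd45b had -0.289 with S100a9, -0.269 with Wfdc21, -0.262 with S100a8 and -0.239 with Retnlg. The lowest in this list were -0.117 (Ngp) for Acod1 and -0.172 (Lyz2) for Upp1. In cKO cells Hcar2 was at -0.0218 with Mmp9 and 0.0277 with Cxcr2, and Gadd45b at -0.0362 with Wfdc21. Gadd45b was at 0.0164 with S100a9, 0.0225 with S100a8 and -0.124 with Retnlg, genes above zero in too many cells for the local zero. Acod1 with Ngp (-0.120) and Upp1 with Lyz2 (-0.169) stayed near their fl/fl values.

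Subclusters of the Neutrophil-like cells, made without the 4 genes, held the members unequally. At the coarser setting there were 2, one led by Ier3, Hilpda and Cd274 (120 cKO and 155 fl/fl cells) and one led by Lrg1, Retnlg and Wfdc17 (105 cKO and 117 fl/fl cells). In fl/fl cells of the Ier3 subcluster Hcar2 averaged 2.47 ± 3.50, Upp1 2.48 ± 3.51 and Gadd45b 2.23 ± 3.34. The Lrg1 subcluster had means of 0.413 ± 1.58, 0.596 ± 1.72 and 0.319 ± 1.53 for the same genes. Acod1 differed little in fl/fl cells, with 1.98 ± 3.40 in the Ier3 subcluster and 1.54 ± 2.74 in the Lrg1 subcluster, and 40% and 40.2% of cells above zero.

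A finer setting gave 5 subclusters and separated Acod1 from Hcar2. The one led by Marcksl1, Gbp2 and G0s2 had Acod1 above zero in 38 of 55 fl/fl cells (69.1%, 55.2 to 80.9). The one led by Hilpda, Bnip3 and Ero1l had Acod1 in 8 of 45 fl/fl cells (17.8%, 8 to 32.1), with Hcar2 in 77.8% (62.9 to 88.8) and Gadd45b in 71.1% (55.7 to 83.6). Hcar2 was in 49.1% and Gadd45b in 50.9% of the Marcksl1 subcluster. In a subcluster led by Retnlg, Mmp8 and Hp, Acod1 was above zero in 45.3% of 64 fl/fl cells, while Hcar2 was in 17.2%, Upp1 in 23.4% and Gadd45b in 21.9%. Median genes above zero were 82, 62 and 50 in these 3 subclusters.

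Between the libraries, the deposited mean of every member was lower in cKO Neutrophil-like cells, by 0.161 to 0.321. Acod1 averaged 1.62 ± 2.78 in 225 cKO cells and 1.79 ± 3.13 in 272 fl/fl cells, a scaled difference of -0.173. Hcar2 averaged 1.42 ± 3.11 in cKO and 1.58 ± 3.01 in fl/fl cells, a difference of -0.161. Upp1 averaged 1.5 ± 2.98 in cKO and 1.67 ± 3.02 in fl/fl cells (-0.170), and Gadd45b 1.09 ± 2.29 in cKO and 1.41 ± 2.87 in fl/fl cells (-0.321). Each difference is small beside the SD over cells. All 4 were lower by at least 0.1, as were 50 of 316 genes tested (15.8%), and the members were chosen from this difference, so nothing is read from the count. The sign depended on the summary, since medians were higher in cKO by 0.837 (Acod1), 0.164 (Hcar2), 0.348 (Upp1) and 0.451 (Gadd45b). With the 3 clusters led by granule genes added, Acod1 (0.105), Hcar2 (0.0708) and Upp1 (0.127) were higher in cKO, and Gadd45b was at -0.0338. Relative to the local zero described next, the mean differences were -0.704, -0.305, -0.315 and -0.688 for Acod1, Hcar2, Upp1 and Gadd45b. Without shared barcodes the deposited differences were -0.237 for Acod1, -0.177 for Hcar2, -0.178 for Upp1 and -0.382 for Gadd45b.

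Shares of cells with a high value were then compared. With a deposited value of at least 3, a cut that needs no zero level and was chosen after seeing the values at 2, 3 and 4, Acod1 was high in 39 of 225 cKO cells (17.3%, 12.6 to 22.9) and in 69 of 272 fl/fl cells (25.4%, 20.3 to 31.0). Upp1 was high in 22.7% of cKO and 23.5% of fl/fl cells, a gap of less than 1 point. Hcar2 was high in 19.6% of cKO and 22.8% of fl/fl cells, and Gadd45b in 14.2% of cKO and 18% of fl/fl cells. The intervals of cKO and fl/fl overlap for all 4 at this cut. At least 2 was reached by 21.3% of cKO and 29.4% of fl/fl cells for Acod1, 23.1% and 27.2% for Hcar2, 27.6% and 28.7% for Upp1, and 17.8% and 24.6% for Gadd45b. At 4 the order of the libraries turned for Hcar2 (17.8% of cKO and 16.9% of fl/fl cells) and Upp1 (17.8% of cKO and 17.6% of fl/fl cells), while Acod1 was at 14.7% of cKO and 18.8% of fl/fl cells and Gadd45b at 10.7% of cKO and 14.3% of fl/fl cells. Against an estimated local zero of the cKO library, described with the processing, Acod1 lay at least 1 above it in 23.6% of cKO cells (18.2 to 29.7), against 37.9% of fl/fl cells (32.1 to 43.9). Gadd45b was at 24.9% in cKO (19.4 to 31.1) and 35.7% in fl/fl cells (30 to 41.7), Hcar2 at 26.2% in cKO and 33.5% in fl/fl cells, and Upp1 at 37.3% in cKO and 38.6% in fl/fl cells. The intervals were apart for Acod1 alone, but they leave out the error of the estimated local zero in cKO. With 1 library a genotype, these gaps compare 2 libraries and not the genotypes. At the cut of 3, 6.65% of 316 genes were lower in cKO by 3 points or more, Hcar2, Acod1 and Gadd45b among them. Above the local zero, 7.37% of 285 genes were lower by 5 points or more, again with these 3, and nothing is read from either count.

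**Figure D4:**
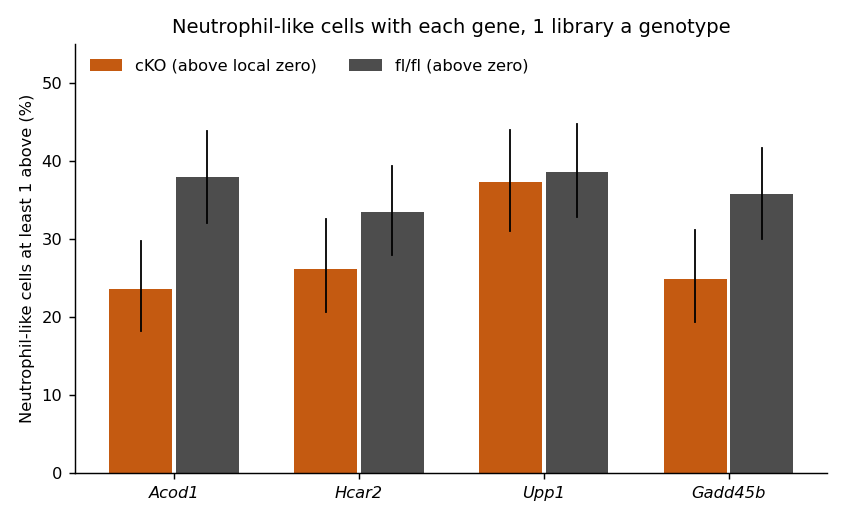
Share of Neutrophil-like cells (y axis, percent) at least 1 above the local zero in cKO (orange, 225 cells) and at least 1 above zero in fl/fl (grey, 272 cells), by gene, with 95% Clopper-Pearson intervals. Acod1 stands at 23.6% in cKO and 37.9% in fl/fl cells, and Upp1 at 37.3% in cKO and 38.6% in fl/fl cells.

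By subcluster, the gap in Acod1 was widest in the one led by Lrg1, a view chosen after seeing the values. There a deposited value of at least 3 was found in 7 of 105 cKO cells (6.67%, 2.72 to 13.3) and in 28 of 117 fl/fl cells (23.9%, 16.5 to 32.7). In the Ier3 subcluster it was found in 32 of 120 cKO cells (26.7%, 19.0 to 35.5) and 41 of 155 fl/fl cells (26.5%, 19.7 to 34.1). The difference between the subclusters was not tested, with 1 library a genotype. At least 1 above the local zero, Acod1 was lower in cKO in both. The Lrg1 subcluster had 13.3% of cKO and 36.8% of fl/fl cells, and the Ier3 subcluster 32.5% of cKO and 38.7% of fl/fl cells. By this measure Acod1 was also lower in cKO in all 5 subclusters of the finer setting. The deposited mean of Acod1 was higher in cKO in the Ier3 subcluster (2.28, against 1.98 in fl/fl) and lower in the Lrg1 one (0.862 and 1.54). In the finer setting it was higher in cKO in the subclusters led by Hilpda (0.853 and 0.517) and Gm19951 (1.19 and 1.01). It was lower in cKO in the other finer subclusters. The local zero is a 0.3 quantile of cKO neighbours, so it may sit too high where most cells have the gene. Acod1 was above zero in 69.1% of fl/fl cells of the Marcksl1 subcluster. At the cut of 3, Acod1 was not lower in cKO in the Gm19951 subcluster (11.1% of cKO and 10.7% of fl/fl cells). At that cut the Retnlg subcluster had 2 of 38 cKO cells (5.26%, 0.644 to 17.7) and 20 of 64 fl/fl cells (31.2%, 20.2 to 44.1). The Marcksl1 subcluster had 50% of cKO and 54.5% of fl/fl cells. Hcar2, Upp1 and Gadd45b were high in at most 9.52% of cKO and 9.40% of fl/fl cells of the Lrg1 subcluster. Gadd45b in the Ier3 subcluster was high in 22.5% of cKO and 27.7% of fl/fl cells, and Hcar2 in 31.7% of cKO and 35.5% of fl/fl cells. Upp1 ran the other way in the Hilpda subcluster of the finer setting, with 14 of 33 cKO cells (42.4%, 25.5 to 60.8) and 13 of 45 fl/fl cells (28.9%, 16.4 to 44.3), and the intervals overlap.

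**Figure D5:**
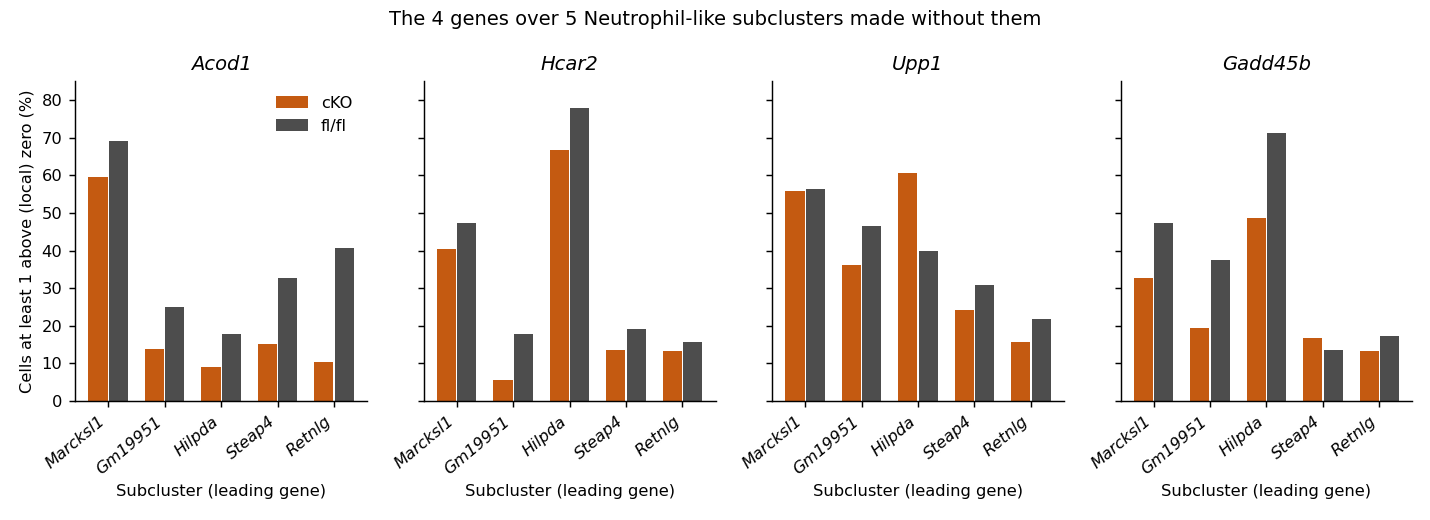
Share of cells (y axis, percent) at least 1 above the local zero in cKO (orange) or zero in fl/fl (grey), by gene, in 5 Neutrophil-like subclusters made without the 4 genes (x axis, leading gene). Acod1 is at 10.5% of cKO and 40.6% of fl/fl cells of the Retnlg subcluster and highest in the Marcksl1 one, while Hcar2 and Gadd45b are highest in the Hilpda one.

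All 4 genes lay at least 1 above the local zero in 5 of 225 cKO cells (2.22%, 0.725 to 5.11) and above zero by 1 in 14 of 272 fl/fl cells (5.15%, 2.84 to 8.49), and the intervals overlap. None did in 32.9% of cKO (26.8 to 39.4) and 21.0% of fl/fl cells (16.3 to 26.3), beside the lower single shares of cKO cells. Relative to the product of their shares, pairs were found together more in cKO than in fl/fl cells for 5 of 6 pairs. The cKO ratios rest on an estimated zero and on few cells with both genes, from 18 (Acod1 with Gadd45b) to 28 (Hcar2 with Upp1). Acod1 with Hcar2 stood at 1.44 times in cKO and 1.10 times in fl/fl cells, Acod1 with Gadd45b at 1.36 and 1.12, Acod1 with Upp1 at 1.26 and 1.13, Hcar2 with Upp1 at 1.27 and 1.25, and Upp1 with Gadd45b at 1.15 and 0.988. Hcar2 with Gadd45b was at 1.43 times in cKO and 1.48 times in fl/fl cells, and its Spearman rho was 0.104 in cKO cells, against 0.359 in fl/fl cells. In cKO that rho was below those of Acod1 with Gadd45b (0.171), Acod1 with Hcar2 (0.138) and Hcar2 with Upp1 (0.129). Of these, the first was at 0.0847 in fl/fl cells, the second at 0.0600 and the third, higher than in cKO, at 0.176. Also lower in cKO were the rho of Acod1 with Upp1 (0.0685 in cKO, 0.143 in fl/fl) and Upp1 with Gadd45b (-0.0151 and 0.0109). For the pairs with Upp1, ratio and rho therefore moved in opposite directions.

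Over 12 other classes or unnamed clusters of at least 50 cells a library, all deposited differences but 1 lay within 0.1 of zero on the scaled scale. The exception was Acod1 in the unnamed cluster led by Ptma, Stmn1 and Pclaf, genes of dividing cells, with -0.0310 ± 0.732 in 167 cKO cells and 0 of 219 fl/fl cells above zero (difference 0.142). Macrophage-like cells had Acod1 at 0.127 ± 1.07 in 361 cKO and 0.0665 ± 0.849 in 549 fl/fl cells, a difference of 0.0601. Within the Monocyte-like class, the small cluster led by Fam26f differed more. Its Hcar2 averaged 0.234 ± 1.37 in 61 cKO and -0.0196 ± 0.402 in 81 fl/fl cells (0.254), and its Upp1 0.512 ± 1.32 in cKO and 0.716 ± 1.77 in fl/fl cells (-0.205). Upp1 lay at least 1 above the local zero in 6.56% of its cKO cells (1.82 to 15.9) and above zero by 1 in 25.9% of its fl/fl cells (16.8 to 36.9). Without shared barcodes, Monocyte-like Upp1 differed by -0.207 over 129 cKO and 174 fl/fl cells. In the cluster led by Vim, nearly all shared barcodes, the difference of Hcar2 against the local zero was 0.189. Gadd45b was above zero in 58.4% of its fl/fl cells, past the 50% up to which the local zero was used. Its difference was -0.194 with 30 neighbours, -0.0131 with 50 neighbours and -0.0115 as deposited, so no difference is read for Gadd45b there.

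Lyz2, whose promoter drives LysM-Cre, was above zero in 96 of the 272 fl/fl Neutrophil-like cells (35.3%), in 28.6% of cells with Hcar2 and in 39.1% of cells without it. The shares with and without the gene were 28.4% and 39.9% for Upp1 and 30.4% and 38.8% for Gadd45b. Acod1 went the other way, at 38.5% and 33.1%.

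Beside the members, lists of related genes were read in Neutrophil-like cells by counts of at least 0.1 in the deposited difference, set against 15.8% of 316 genes lower and 22.2% higher. Of 13 tumor neutrophil genes 6 were lower in cKO and 0 higher, with a median of -0.0885 against 0.0135 over all genes. They included Ero1l at 0.540 ± 2.09 in cKO and 0.770 ± 2.13 in fl/fl cells (-0.229), the PD-L1 gene Cd274 (-0.195) and the stress transcription factor gene Atf3 (-0.171). Tnfrsf23, a decoy receptor gene, was at -0.149. Of 20 NF-kappaB and TLR targets 3 were lower and 6 higher, with Cxcl3 at 0.328, Ier3 at 0.326 and Il1b at 0.204 against Clec4e at -0.200. Relative to the local zero the balance turned, with 7 lower and 2 higher of 16 such genes at 30 neighbours, and 9 lower and 0 higher with 50 neighbours. Of 6 NRF2 and oxidative stress genes 3 were lower (Fth1 at -0.461, Gclm at -0.173, Hmox1 at -0.135), and the cystine transporter gene Slc7a11 was higher (0.341).

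Relatives of the members were few. Gadd45a, the closest measured relative of Gadd45b, was at -0.00890 and Cdkn1a at -0.0794, so of 4 genes of that list only Gadd45b was lower by 0.1. Of the metabolite receptors, Ffar2, a receptor for short-chain fatty acids, was at 0.0514 beside Hcar2. Acod1 and Atf3 were the 2 genes tested of the itaconate and TCA list, and Upp1 the only one of the nucleoside salvage list. Among 18 mature neutrophil and granule genes 4 were lower and 3 higher, with S100a9 at -0.329, S100a8 at -0.237, Mmp9 at 0.342 and Cxcr2 at 0.263. Relative to the local zero the sign turned for Mmp9 (-0.795) and Cxcr2 (-0.868), so neither is read as higher in cKO. By that measure 4 were lower and 1 higher of the 13 genes of this list for which it was used. S100a8 and S100a9 were not among them. Immediate early and dissociation genes moved the other way to the members, with 5 of 6 higher in cKO (Egr1 0.497, Fos 0.229, Dusp1 0.211, Egr3 0.185) and a median of 0.198. Their part in the members' differences was not tested, and the sign of that median turned under the local zero (-0.0459).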

How the data were processed

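Single-cell libraries of sorted live tumor cells were made with 10X Genomics chemistry, per the labels' protocols. Cell Ranger 3.0.0, Seurat 3.1.4 and the builds mm10 and GRCm38 are named per the submitters' processing notes. The authors deposited, for each gene in each cell, a scaled score between -25.91 and 10, and UMAP coordinates, also a score. The cKO values appear to have been moved toward fl/fl by batch integration, which is read from the values alone. No cell filter or doublet removal is stated. The end of a cell's name gave its library.

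Clusters came from 30 principal components of both libraries, 15 neighbours and the Leiden method at resolution 1 (scanpy 1.11.5, igraph 0.11.9, scikit-learn 1.9.0, Python 3.11.15, scipy 1.17.1, numpy 2.4.6). A class name needed a mean marker difference of at least 0.5, a next class below 0.5 times it and 3 measured markers, thresholds chosen after seeing the data. Neutrophil-like subclusters used 15 components without the 4 genes, at Leiden 0.3 and 0.5. Possible doublets (125 cKO and 220 fl/fl cells, with at least 3 markers of each of 2 families) were kept except in 1 alternative. Genes tested in Neutrophil-like cells were above zero in at least 5% of its fl/fl cells. The local zero of a cKO cell was the 0.3 quantile of the gene over its 30 nearest cKO cells of the cluster, for genes above zero in at most 50% of fl/fl cells (285 genes).

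Named genes, by rule, were the members, Ahr, Lyz2, the 5 most like each member over clusters and over cells, up to 4 of each list with the largest difference, and the leading genes of clusters. Gadd45a, Cdkn1a and Ffar2 also follow that rule. The members and lists were chosen with earlier results of these data known. The shares above the local zero and at the cut of 3, the rules of 3 and 5 points and the subclusters described between libraries were chosen after seeing the data. So was the spelling of the kB motif, after 2 other spellings, 1 of which matched Acod1, were tried. Alternatives are in the closing section.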

Additional observations from a re-analysis of the deposited data

How the results depend on the processing

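No paired analysis was possible because each genotype has 1 library, and leaving out a replicate was impossible for the same reason. Clustering at resolution 0.5 or 2, clustering without the members, leaving out possible doublets or shared barcodes, and weighting subclusters as in fl/fl kept all 4 Neutrophil-like differences negative and within 0.1 of the reported ones. Relative to the local zero with 30 neighbours they were -0.704 (Acod1), -0.305 (Hcar2), -0.315 (Upp1) and -0.688 (Gadd45b), and with 50 neighbours and a quantile set by the share at zero -0.666, -0.169, -0.196 and -0.642, a change of over 1.5 times for Hcar2 and Upp1. Medians reversed the sign, at 0.837, 0.164, 0.348 and 0.451 in the same order, where the fl/fl median cell lay at zero for every member and the cKO median above it. Capping values at 5 gave -0.124 for Gadd45b. Adding the 3 clusters led by granule genes gave 0.105 for Acod1, 0.0708 for Hcar2, 0.127 for Upp1 and -0.0338 for Gadd45b, with fl/fl shares above zero of 15.6%, 14.2%, 20.3% and 25.1%. Adding the Ifitm6 cluster alone, chosen after seeing the data, gave -0.263 for Hcar2 and shares of 29.1% for Acod1, 26.6% for Hcar2 and 30.8% for Gadd45b. Cells with at least 3 members were 20.2% of fl/fl Neutrophil-like cells, 7.69% in the lowest and 36.7% in the highest tertile by genes above zero, and Gadd45b was in 44.4% of Hcar2 cells of the middle tertile. Highest minus lowest subcluster mean at Leiden 0.5 was 3.60 for Acod1, 4.64 for Hcar2, 2.66 for Upp1 and 3.82 for Gadd45b, at Leiden 1 it was 3.92, 4.56, 2.35 and 3.57, and by k-means 2.26 for Hcar2 and 2.12 for Gadd45b. List medians became -0.131 for NF-kappaB and TLR targets (50 neighbours), 0.0348 for NRF2 genes (30 neighbours), and -0.0459 and -0.0492 for immediate early genes (30 and 50 neighbours). The causes were not tested. Depth per cell is not given by scaled scores, so a gene at zero may be undetected.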
